A study of Mus musculus with 30 samples.

Results

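Kidneys of Kif3aΔTub mice given an activin trap were compared with kidneys of the same mutants given PBS. The comparison takes every kidney array whose source label names the mutant, 4 from treated and 4 from untreated animals, which is 8 of the 30 arrays of the series. The series profiled kidney and muscle of 15 mice aged 6 weeks on Affymetrix Mouse Genome 430 2.0 arrays, with 1 array per tissue and animal. The mutants carry the genotype label Kif3aKSPCre. In such mice a Cre recombinase driven by the promoter of kidney-specific cadherin removes Kif3a, a subunit of the kinesin-2 motor, from tubule epithelium. The trap, sActRIIB-Fc, is a soluble activin receptor IIB joined to an antibody Fc part, and was injected into the peritoneum at 10 mg/kg every week, 2 times up to week 6. The other kidneys came from wild-type animals of the same age given PBS (3 arrays) or the trap (4 arrays). The labels give the controls as wild type only, with no statement on floxed alleles or Cre, and give no sex. The trap acts on the whole animal and not on the kidney alone, and each array holds RNA of snap-frozen tissue with all its cell types.

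Kinesin-2 carries cargo along the primary cilium, and tubules that lose it form cysts and scar. Activins are dimeric ligands of the TGF-beta family that bind activin receptors type II, recruit a type I receptor and pass the signal on through SMAD2 and SMAD3. Follistatins bind activins outside the cell, as the trap does, and injured kidney is known to make activin A. The nephron filters blood in the glomerulus, reclaims most solutes in the proximal tubule, makes Egf and uromodulin in the loop of Henle and distal tubule, and adjusts sodium, water and acid in the collecting duct, where principal and intercalated cells lie side by side.

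Values are deposited log2 signals, and a change is the difference of group means on that scale ± standard error from limma, with the Benjamini-Hochberg adjusted p of the same fit over 17782 genes. A gene was called at an adjusted p under 0.05. Because an array gives brightness and not molecule counts, precision rests on how many animals there were, and nothing in the labels ties animals to litters or batches. In bulk tissue fewer cells of a type and less RNA per cell cannot be told apart, and this holds for every gene below. Kif3a stood at 7.25, 7.39, 7.22 and 7.48 in untreated mutants and at 7.37, 7.74, 7.39 and 8.0 in treated ones, against 7.76, 7.89 and 7.84 in untreated wild type. The mutant groups overlapped (0.29 ± 0.14, adjusted p = 0.333). Treated replicate 4, at 8.0, lay above the untreated wild-type arrays, and replicate 2, at 7.74, fell just short of them. The sources used here do not say whether its probe sets fall in the deleted stretch, so they do not check the labels of single animals. On the first principal axis, which held 73.9% of the variance, the mutant arrays lay between 26.4 and 66.3 and the wild-type arrays between -59.1 and -43.8. Kidney genes were bright on every mutant array (Umod at least 12.66), and the genes of a skeletal muscle list had a median signal of 4.56 on the kidney arrays, a guide to the level of genes that are off.

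The trap changed 427 genes in mutant kidney, 2.40% of those tested. Of these, 191 rose (1.07%) and 236 fell (1.33%), and 98 changed at least 2-fold, 72 of them upward. For 393 of the 427 every treated array lay on the same side of every untreated one, which held for 8.32% of all genes. The median change of all genes was -0.0091. Of all 17782 genes 2659 had an unadjusted p under 0.05, the share to set beside such counts in the lists below. Leaving out 1 array at a time left 155 of the 427 called each time. The count fell to 179 without untreated replicate 4, 216 without untreated replicate 1 and 224 without treated replicate 2, and rose to 770 without untreated replicate 2.

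Several measures moved with treatment and touch every count that follows. The 3′ probe set of the 18S ribosomal RNA control read 12.23, 12.62, 11.79 and 11.87 in untreated mutants and 10.82, 10.59, 11.29 and 10.32 in treated ones, with no overlap (-1.37, exact two-sided permutation p = 0.0286, the smallest that 70 splits allow). It was also lower with the trap in wild type (-0.62, exact permutation p = 0.0286). With this signal as a covariate 1 gene, Slc22a19, was still called, although 425 of the 427 kept their sign. The median size of their change was 0.74 with the covariate and 0.71 without it, while the median standard error was 0.29 in place of 0.14. Signal of 10 adipocyte genes averaged 8.84 ± 0.91 (SD, n = 4) in treated and 7.22 ± 1.40 in untreated mutants, and with it as a covariate 180 genes were called, 143 of them among the 427. None of the 10 adipocyte genes was called, and 8 were higher at an unadjusted limma p under 0.05. Treated replicate 2 alone carried adrenal cortex RNA, with a mean of 10.48 over 10 adrenal genes, whereas their mean was at most 5.74 on every other kidney array. The part of these measures in the changes below was not tested beyond the covariate counts given here.

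**Figure D1:**
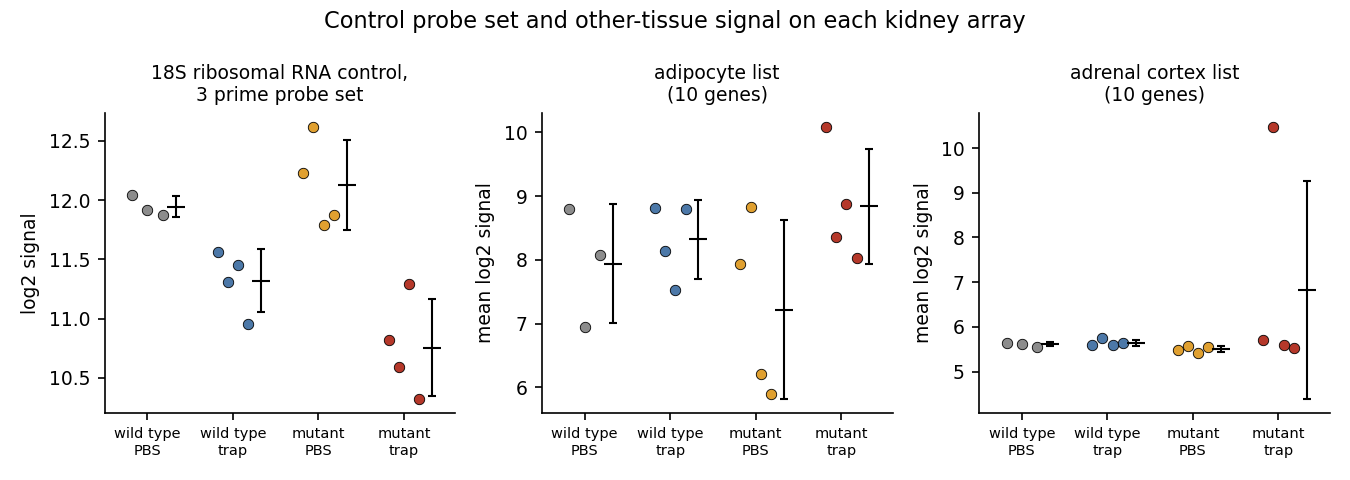
The 18S ribosomal RNA control (3′ probe set, log2 signal) and the mean log2 signal of 10 adipocyte and 10 adrenal cortex genes on each of the 15 kidney arrays. Points are arrays and bars are group means ± SD. The 18S signal of treated mutants lies below that of untreated mutants without overlap, and 1 treated mutant stands apart for adrenal genes.

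Proximal tubule genes rose. Of 39 measured, 11 were called (28.2%) and all 11 were higher, where 1.07% of all genes rose. The list had a median change of 0.92. All 39 had a positive change, called or not, and 30 had an unadjusted p under 0.05. The mean signal of the list was 8.05, 9.50, 9.23 and 8.98 in untreated mutants and 10.28, 10.04, 9.77 and 10.07 in treated mutants. Every treated mutant therefore lay above every untreated one, and all lay below the untreated wild type at 12.12 to 12.14. Without untreated replicate 2, the highest of its group, 23 of the list were called. With only the mutant arrays in the fit 6 were called.

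The leading gene was Slc22a19, an organic anion transporter of the proximal tubule. It read 4.31, 6.24, 4.91 and 4.88 in untreated mutants and 9.84, 9.46, 9.33 and 9.04 in treated ones. The rise of 4.33 ± 0.30 was 20.2-fold (adjusted p = 2.72e-06), the groups were far apart, and the untreated wild type stood at 11.19, 11.62 and 11.56. Slc22a30, a transporter of the same family, went from 3.88, 4.89, 5.55 and 4.29 to 7.49, 7.45, 7.46 and 7.89 (2.92 ± 0.33, adjusted p = 0.000277). The untreated mutants were near the level of genes that are off, so this change may be understated. The treated mean minus that of untreated wild type was -4.08. Slc22a7, another anion transporter, rose by 1.74 ± 0.22 (adjusted p = 0.00092). Slc22a6 and Slc22a8, the classic basolateral anion transporters of this segment, were not called (1.01 and 0.73).

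Dnase1, a secreted deoxyribonuclease, stood at 6.43, 7.06, 8.39 and 7.75 without the trap and at 10.61, 10.47, 8.69 and 9.21 with it. The groups did not overlap, but the lowest treated and the highest untreated animal were close (2.34 ± 0.41, 5.06-fold, adjusted p = 0.00671). Miox, which oxidises inositol, rose by 1.86 ± 0.38 (adjusted p = 0.0167) and missed the threshold without treated replicate 2 (adjusted p = 0.0572). Gatm, the first enzyme of creatine synthesis, rose by 1.51 ± 0.25. Kap, an androgen-regulated kidney protein, rose by 1.00 ± 0.17. Amn, which anchors the endocytic receptor cubilin, rose by 0.91 ± 0.17, and the phosphate and urate transporter Slc17a1 by 0.89 ± 0.14. Its neighbour Slc17a3 (1.59 ± 0.39, adjusted p = 0.0437) and Keg1 (1.42 ± 0.34, adjusted p = 0.0383) were called with overlapping arrays. Both lost the call without most single arrays (adjusted p up to 0.132 and 0.113, without untreated replicate 4). Slc34a1, the main phosphate transporter of the segment, and Lrp2, the endocytic receptor megalin, each stood 0.99 ± 0.27 higher and were not called (adjusted p = 0.0678 and 0.0732). Without untreated replicate 2 both were called (adjusted p = 0.0217 for Slc34a1 and 0.0148 for Lrp2).

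Several enzymes outside the list also rose. Akr1c14, an aldo-keto reductase of steroids, went from 3.67, 5.91, 4.15 and 4.10 to 9.36, 5.93, 7.35 and 7.57 (3.10 ± 0.65, adjusted p = 0.0204). Its groups were separated by only 1 narrow gap, between untreated replicate 2 and treated replicate 2, and the call was lost without untreated replicate 1 (adjusted p = 0.0763), 3 or 4. Ugt2b37, a glucuronosyltransferase, went from 7.12, 7.75, 7.19 and 6.90 to 10.03, 9.67, 10.43 and 10.16, with a wide gap between the groups (2.83 ± 0.65, adjusted p = 0.0327). The fit shares 1 spread over all groups, and the treated wild-type kidneys ranged from 7.91 to 12.61. The call was lost without any 1 of 7 mutant arrays (adjusted p up to 0.102, without untreated replicate 4). Ugt3a1, a glycosyltransferase, read 6.32, 7.28, 7.37 and 6.86 against 8.85, 9.07, 9.46 and 9.26 and did not overlap (2.20 ± 0.21, adjusted p = 5.99e-05). Akr1d1, a steroid 5β-reductase, rose by 2.57 ± 0.39 (adjusted p = 0.00311). Untreated mutants averaged 4.46 for Akr1c14 and 3.88 for Akr1d1, below the level of genes that are off, so the size of both rises is uncertain. Cyp51, a cholesterol synthesis enzyme, rose by 1.16 ± 0.20 (adjusted p = 0.00615).

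Further rises were chosen after their values were seen. The meprin subunits of the brush border, Mep1b and Mep1a, rose by 2.16 ± 0.38 and 1.04 ± 0.17. The glutathione peroxidase Gpx6 rose by 1.70 ± 0.19 and the growth hormone receptor Ghr by 1.13 ± 0.16. The transferrin receptor Tfrc rose by 1.19 ± 0.21. The imprinted gene Mest went from 5.57, 5.83, 5.81 and 5.60 to 6.88, 6.92, 6.85 and 6.80, so that its groups were tight and well apart (1.16 ± 0.09, adjusted p = 1.32e-05). These 6 genes stayed called whichever array was left out.

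**Figure D2:**
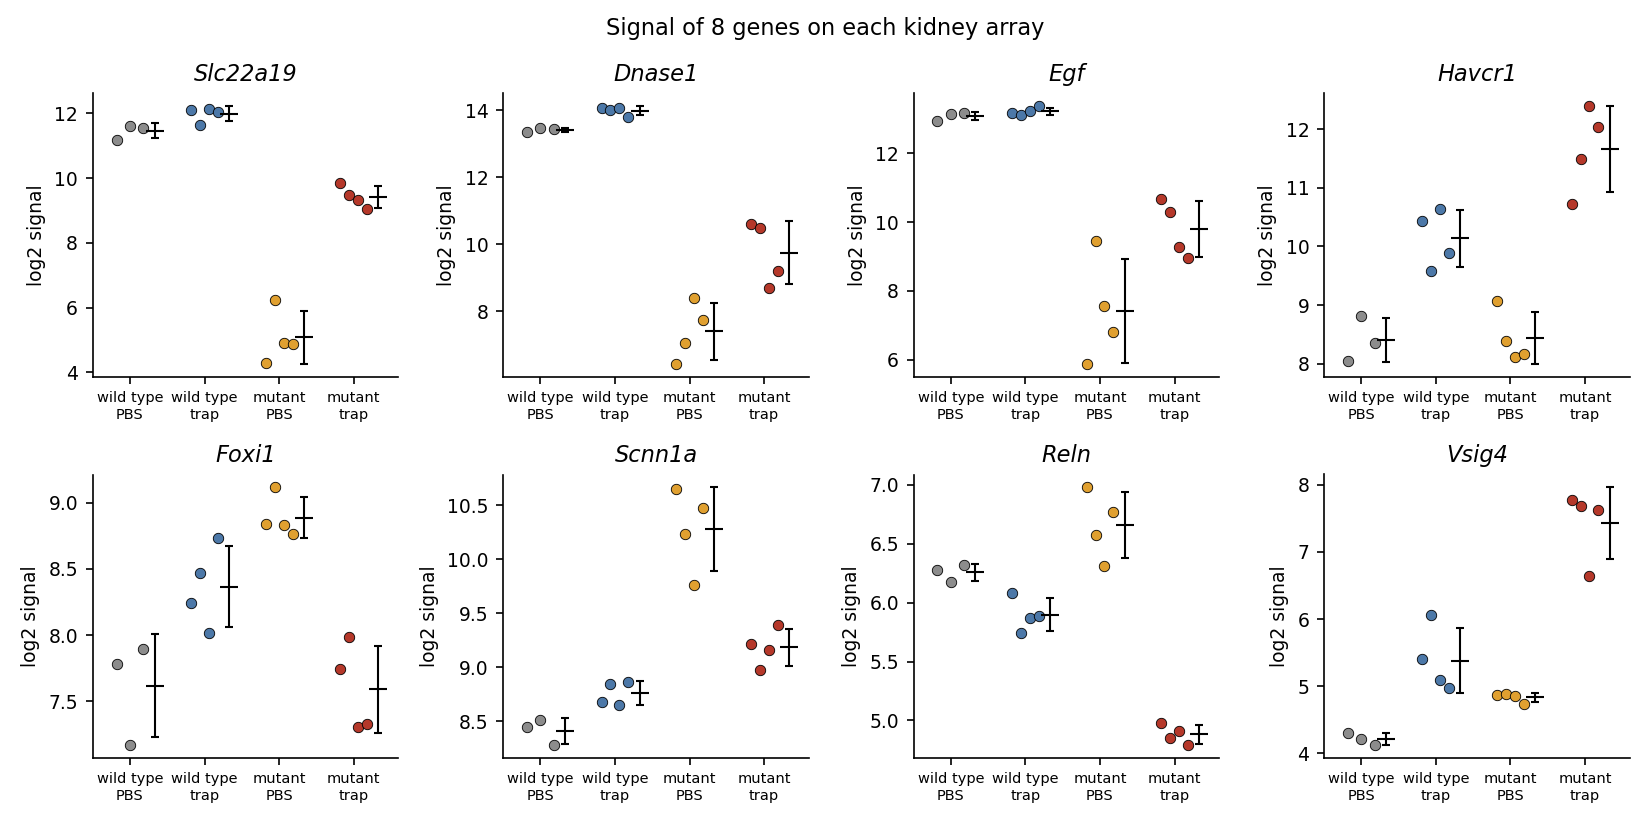
Log2 signal of 8 genes on each kidney array, by genotype and treatment. Points are arrays and bars are group means ± SD. Slc22a19, Dnase1, Havcr1 and Vsig4 rise and Foxi1, Scnn1a and Reln fall in treated mutants without overlap, while the Egf arrays overlap.

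Promoters of the proximal tubule list were read because its members moved together. The table of RefSeq promoters (250 bases before to 50 after the gene start, GRCm38.p6) held 35 of the 39 genes. The letters GTTAAT, the start of the site bound by the tubule factor HNF1, were searched on both strands. They occurred, at any start of the gene, at 10 of the 35 genes (28.6%), at 2 of the 10 called ones (20%) and at 6.26% of all measured genes in that table. A match is a string of letters and not a measured binding site. The stretches of the called genes with a match are shown up to 40 bases to each side, 5′ to 3′ along the gene, with the match in capitals. Both matches are on the opposite strand and read ATTAAC here, 221 bases before 1 of 2 starts for Dnase1 (chr16:4036786-4036860, + strand) and 142 before the start for Miox (chr15:89334291-89334376, + strand).
Dnase1: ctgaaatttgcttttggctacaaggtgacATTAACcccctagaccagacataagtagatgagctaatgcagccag
Miox: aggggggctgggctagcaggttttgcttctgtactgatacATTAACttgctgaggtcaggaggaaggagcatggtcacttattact

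In the loop of Henle and distal tubule 4 of 20 genes were called (20%), all higher (median change 0.24), where 1.07% of all genes rose. Egf, the growth factor precursor of the distal tubule, read 5.87, 9.44, 7.56 and 6.81 in untreated mutants and 10.67, 10.29, 9.26 and 8.95 in treated ones. Untreated replicate 2 lay within the treated range, and the rise of 2.37 ± 0.55 (5.18-fold, adjusted p = 0.0331) was not called without any 1 of 5 mutant arrays (adjusted p up to 0.113, without untreated replicate 4). Slc12a3, the thiazide-sensitive sodium chloride cotransporter, went from 7.75, 8.12, 8.21 and 8.01 to 9.29, 9.90, 9.42 and 9.37 with no overlap (1.47 ± 0.18, adjusted p = 0.000562). It stayed called whichever array was left out. The prostaglandin receptor Ptger3 rose by 0.68 ± 0.12 (adjusted p = 0.00854). Klotho, Kl, the co-receptor of the phosphate hormone FGF23, rose by 0.58 ± 0.13 (adjusted p = 0.0331), from between 8.81 and 9.36 to between 9.47 and 9.83. Its wild-type level was above 11, and the call was lost without untreated replicate 1 or 4 (adjusted p = 0.114). Umod, which encodes uromodulin, stood 0.35 ± 0.13 higher and was not called (adjusted p = 0.189), and neither was the loop transporter Slc12a1 (0.37). The count for the list loop of Henle and distal tubule was 2 without untreated replicate 1 or 4 or treated replicate 2, and 1 with the adipocyte covariate.

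Collecting duct genes went the other way. Of 21 principal cell genes 5 were called, all lower (median -0.49), and of 17 intercalated cell genes 8 were called, all lower (median -0.62). The called shares were 23.8% and 47.1%, where 1.33% of all genes fell. In each list 1 member had a positive change. The mean signal of the principal list was 10.70, 10.59, 10.64 and 10.73 in untreated mutants and 10.22, 10.28, 10.20 and 10.19 in treated ones. That of the intercalated list was 8.46, 8.78, 8.51 and 8.57 against 7.99, 8.24, 7.76 and 7.76. Neither list overlapped between the groups. The principal list stayed above untreated wild type in treated mutants (median 1.57 after 2.06), whereas the intercalated list had a median of 0.17 without the trap and -0.63 with it. The count for collecting duct principal cells was 3 without untreated replicate 1 or 4 or treated replicate 2. For intercalated cells it was 5 without untreated replicate 4 or treated replicate 3 or 4, and 5 with the adipocyte covariate.

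**Figure D3:**
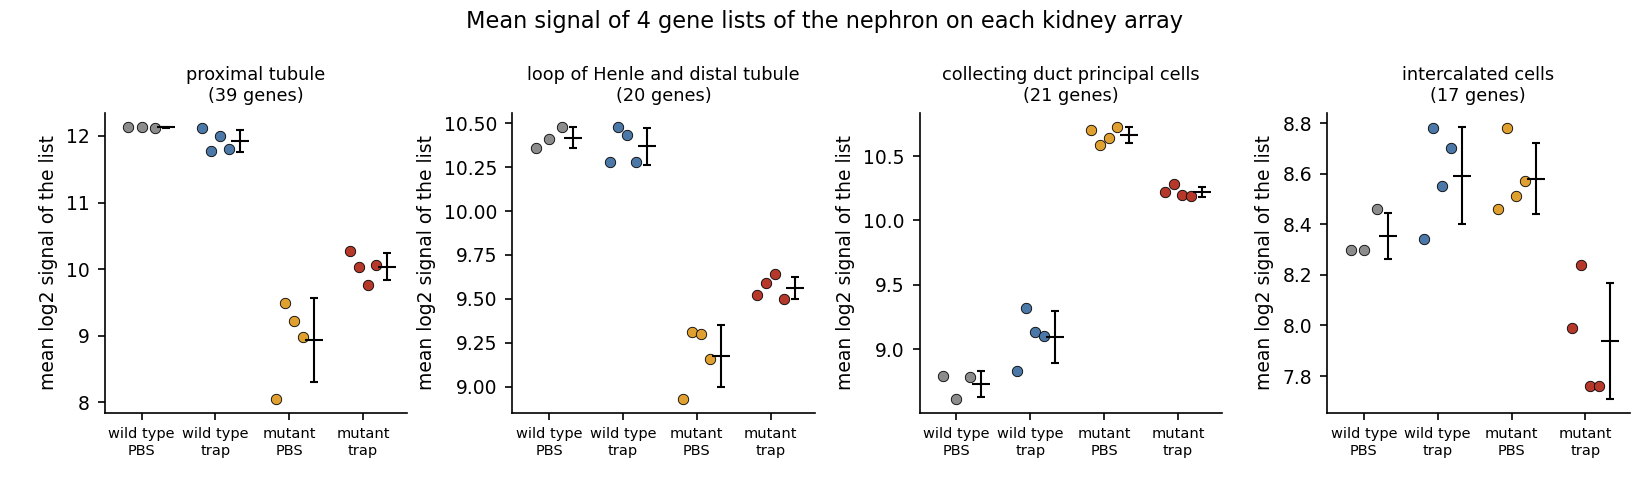
Mean log2 signal of 4 nephron gene lists on each kidney array. Points are arrays and bars are group means ± SD. Treated mutants lie above untreated mutants for the proximal and distal lists and below them for both collecting duct lists, with no overlap in any of the 4.

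Among principal cell genes the subunits of the epithelial sodium channel fell together. Scnn1a read 10.65, 10.23, 9.76 and 10.48 in untreated and 9.22, 8.97, 9.16 and 9.39 in treated mutants, with no overlap (-1.09 ± 0.15, adjusted p = 0.00148). Scnn1g fell by 0.67 on the log2 scale (adjusted p = 0.00576) and its chromosomal neighbour Scnn1b by as much (adjusted p = 0.0463). The Scnn1b call was lost without 11 of the 15 single arrays (adjusted p up to 0.135, without untreated replicate 4). Kcne1, a potassium channel subunit, went from 7.87, 8.13, 7.47 and 7.51 to 6.53, 6.81, 6.61 and 6.30 and did not overlap (-1.18 ± 0.19, adjusted p = 0.00458). A dimmer probe set of Kcne1 gave -0.91 and was not called over probe sets. Npnt, a matrix ligand of integrins, fell by 0.68 (adjusted p = 0.0204), and lost the call without untreated replicate 1 or 4 or treated replicate 2 (adjusted p up to 0.065). The water channels Aqp2 and Aqp3 were not called (-0.15 and -0.35), and whether they differed from the sodium channel was not tested.

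Among intercalated cell genes the transcription factor Foxi1, which specifies this cell type, read 8.84, 9.12, 8.83 and 8.77 in untreated and 7.75, 7.98, 7.30 and 7.32 in treated mutants. The groups did not overlap and the treated ones were back in the range of untreated wild type, 7.17 to 7.89, apart from replicate 2 (-1.30 ± 0.19, adjusted p = 0.00229). Dmrt2, another transcription factor of the list, went from 8.47, 8.49, 8.28 and 8.26 to 6.96, 6.91, 6.96 and 6.89 (-1.45 ± 0.12, adjusted p = 1.7e-05). Its treated arrays were almost alike and none came near an untreated one. The receptor tyrosine kinase Kit fell by 1.26 on the log2 scale and the adhesion protein Hepacam2 by 1.01. Of the proton pump, Atp6v0d2 fell by 1.01, Atp6v1b1 by 0.80 and Atp6v1c2 by 0.57, and the channel Aqp6 fell by 0.77. Foxi1, Dmrt2, Kit, Hepacam2 and Atp6v0d2 stayed called whichever array was left out, whereas Atp6v1b1, Aqp6 and Atp6v1c2 did not (adjusted p up to 0.119). The bicarbonate exchangers of both intercalated subtypes, Slc4a1 and Slc26a4, were not called (-0.07 and -0.43), nor was the carbonic anhydrase Car2 (-0.07).

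The promoter table held 10 of the 17 intercalated genes. The letters TGTTTAC, which forkhead factors such as Foxi1 recognise, were searched on both strands. They occurred at 1 of the 10 (10%) and at 3.36% of all measured genes in the table. The match lay 98 bases before the start of Atp6v1b1, on the strand of the gene (chr6:83742879-83742965, + strand), and is in capitals.
Atp6v1b1: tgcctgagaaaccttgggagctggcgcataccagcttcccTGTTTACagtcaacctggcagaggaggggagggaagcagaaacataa

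The largest falls included genes of several other kinds. Npy6r, a neuropeptide Y receptor gene, fell from 8.48, 9.31, 7.88 and 8.47 to 6.49, 6.04, 6.14 and 6.71 with no overlap (-2.19 ± 0.23, 4.55-fold, adjusted p = 0.000192). Reln, which encodes the secreted glycoprotein reelin, fell from 6.98, 6.57, 6.31 and 6.77 to 4.98, 4.85, 4.91 and 4.79 (-1.78 ± 0.12, adjusted p = 2.72e-06). All treated mutants were below every wild-type array for Reln, although a second, dim probe set gave -0.01. P2ry14, the receptor of UDP-sugars found on intercalated cells, fell from 8.66, 8.43, 8.41 and 8.86 to 7.0, 6.91, 7.28 and 7.13, still above wild type (-1.51 ± 0.11, adjusted p = 5.66e-06). Gpr34, a lysophosphatidylserine receptor, fell by 1.69, the tetraspanin Tspan1 by 1.55, H60c, a ligand of the NKG2D receptor, by 1.47 and Mlph, a linker of melanosome transport, by 1.28. Treated mutants averaged 4.16 for Gpr34 and 4.01 for H60c, below the level of genes that are off, so the size of both falls is uncertain. Mmp7, a metalloproteinase induced in injured tubules, fell from 8.61, 7.69, 7.90 and 7.69 to 6.65, 6.19, 7.47 and 6.29 (-1.32 ± 0.24, adjusted p = 0.00963), and treated replicate 3 stayed close to the untreated range. Wnt9b, a Wnt ligand of the ureteric bud and collecting duct, fell by 0.84 (adjusted p = 0.0154), and its call was lost without treated replicate 2 (adjusted p = 0.0518). A second, dim probe set of Wnt9b gave -0.08.

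Several epithelial junction genes and factors also fell, and were chosen after their values were seen. Epcam, an epithelial adhesion molecule, fell by 0.49 (adjusted p = 0.00461), the desmosomal plaque gene Dsp by 0.79 (adjusted p = 0.00264) and the hemidesmosomal integrin Itgb4 by 0.80 (adjusted p = 0.00127). The claudins Cldn3, Cldn7 and Cldn8 fell by 0.73, 0.55 and 0.72 and E-cadherin, Cdh1, by 0.46. The epithelial transcription factor genes Ehf, Klf5 and Grhl2 fell by 1.03, 0.72 and 0.65. Of these 10 genes, all but Cldn8 stood at least 1.70 above wild type in untreated mutants, and Cldn8 stood 0.66 above. Cdh1, Cldn3, Cldn7, Klf5 and Grhl2 lost the call without 1 or more of the mutant arrays (adjusted p up to 0.0883). Dimmer probe sets gave -0.09 for Klf5 and -0.28, -0.10 and -0.06 for Grhl2, and none of these was called over probe sets.

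**Figure D4:**
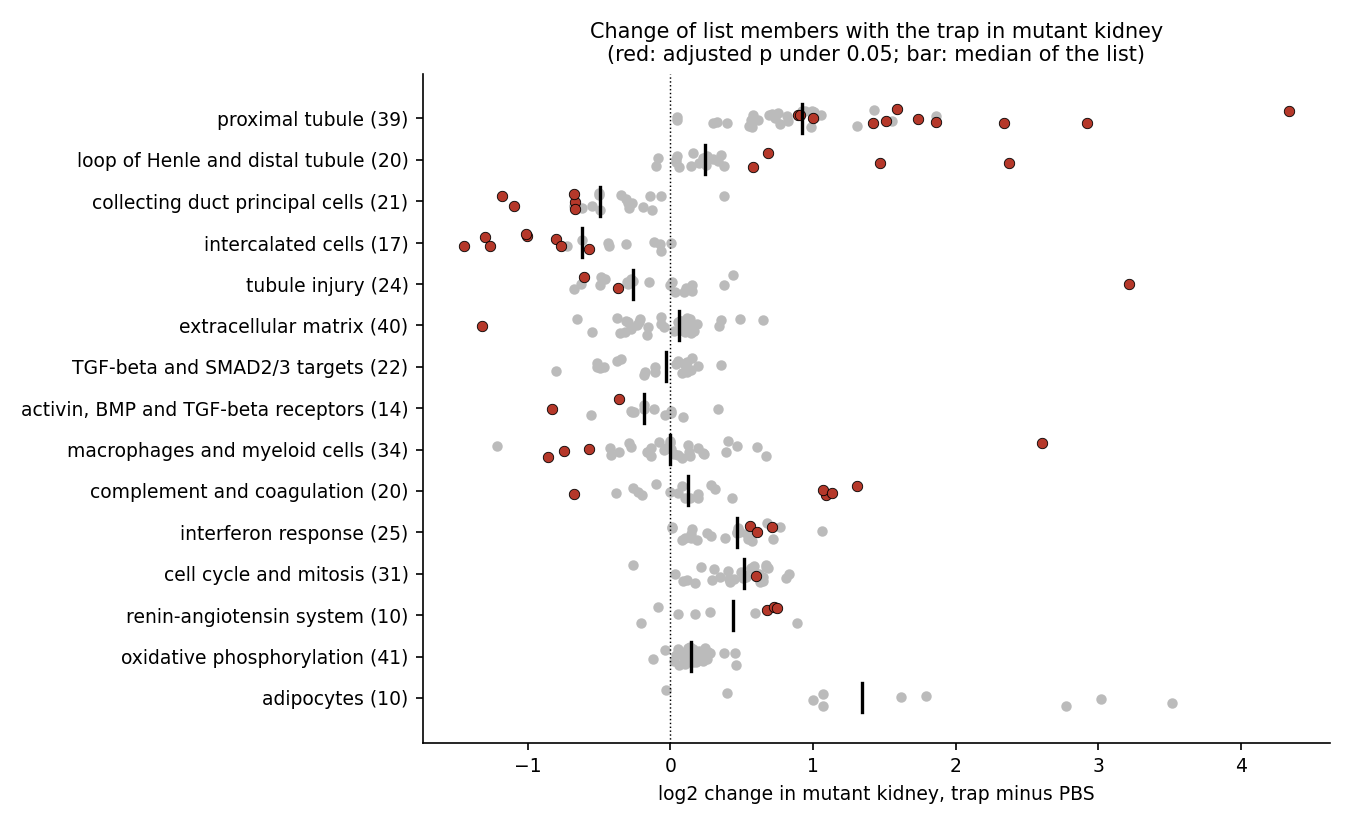
Log2 change with the trap in mutant kidney for the measured members of 15 gene lists (number measured in brackets; a gene can be in more than 1 list). Red points are called, grey points are not, and bars are list medians. Calls in the nephron lists are higher in the proximal and distal lists and lower in both collecting duct lists, and TGF-beta and SMAD2/3 targets have no call.

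The targets of the trap and its own pathway moved little. None of 12 activin and TGF-beta family ligands, 16 antagonists, 14 SMADs and regulators, 22 TGF-beta and SMAD2/3 targets or 11 BMP targets was called, with medians of 0.01, -0.03, -0.10, -0.03 and -0.03. At an unadjusted limma p under 0.05 these lists had 0, 1, 1, 3 and 0 members, all of them lower. Inhba, the subunit of activin A, read 7.02, 6.96, 7.01 and 6.87 in untreated and 6.93, 6.81, 7.37 and 7.05 in treated mutants, which overlapped (0.08 ± 0.12, adjusted p = 0.838). Inhbb, the subunit of activin B, was at 8.35, 7.78, 9.01 and 8.77 and at 8.91, 7.95, 9.18 and 8.78 (0.23 ± 0.27, adjusted p = 0.787). Both stood well above untreated wild type with or without the trap, at 5.22 to 5.59 for Inhba and 5.02 to 5.24 for Inhbb. The follistatin genes Fst (-0.12) and Fstl3 (-0.10), the inhibitory SMAD gene Smad7 (-0.18), the SMAD1/5 target Id1 (0.21) and the matricellular Ccn2 (-0.49) were not called. The 95% interval of the change ran from -0.17 to 0.33 for Inhba and from -0.34 to 0.79 for Inhbb, so changes within those ranges could not be told from none. A call at an adjusted p under 0.05 asks for more than an interval that leaves out 0, so larger changes could be missed too.

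Of 14 receptor genes 2 were called (14.3%), both lower (median -0.19), where 1.33% of all genes fell. Bmpr1b, a type I BMP receptor, fell from 8.14, 8.29, 7.85 and 8.28 to 7.40, 6.89, 7.64 and 7.30 with no overlap (-0.83 ± 0.17, adjusted p = 0.0167), and lost the call without untreated replicate 4 (adjusted p = 0.065) or treated replicate 2. Acvr2a, a type II activin receptor, fell by 0.36 ± 0.09 from 9.42, 9.20, 9.13 and 9.38 to 8.97, 8.86, 8.91 and 8.94. Its adjusted p of 0.0496 was just under the threshold and the call was lost without 12 of the 15 single arrays (adjusted p up to 0.16, without untreated replicate 1). Acvr2b, the receptor whose soluble form the trap is, was not called (-0.18 ± 0.13, adjusted p = 0.597).

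Tubule injury genes were called more often than genes at large and matrix genes about as often. The called shares were 12.5% and 2.5%, where 2.40% of all genes were called. In the injury list 1 gene rose far above its untreated level. Havcr1, the kidney injury molecule KIM-1 of the proximal tubule, read 9.07, 8.39, 8.12 and 8.16 in untreated mutants and 10.71, 11.48, 12.39 and 12.04 in treated ones (3.22 ± 0.33, 9.3-fold, adjusted p = 0.000148). Untreated mutants lay about level with untreated wild type (8.05, 8.81 and 8.36), with a difference of 0.03 ± 0.36 (adjusted p = 0.945), and every treated mutant was above all of them. A second probe set gave 2.89. Its neighbours on chromosome 11, Timd2 (1.58 ± 0.38, adjusted p = 0.0421) and Timd4 (0.51, adjusted p = 0.0344), other members of the TIM family, were also called higher. Timd4 averaged 3.48 over the kidney arrays, below the level of genes that are off. Both calls were lost without untreated replicate 4, among other arrays (adjusted p = 0.104 and 0.116). Of 24 tubule injury genes, Havcr1 was the only one called higher, and Krt7 (-0.61, adjusted p = 0.0345) and Cd24a (-0.37, adjusted p = 0.0483) were called lower (median -0.26). Of the list 9 had a positive change, and 2 were higher and 7 lower at an unadjusted limma p under 0.05. Without untreated replicate 1 neither was (adjusted p = 0.116 and 0.142). Lcn2, the siderophore-binding protein of injured distal tubule, overlapped at 13.75, 12.87, 13.38 and 13.54 against 12.31, 13.01, 13.18 and 13.20 (-0.46 ± 0.21, adjusted p = 0.322). Of 40 matrix genes Mmp7 alone was called (median 0.06), with 1 higher and 3 lower at that unadjusted p, and neither Col1a1 (0.10 ± 0.38) nor Timp1 (-0.27 ± 0.43) was.

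Immune genes changed singly and in both directions. Vsig4, a complement receptor of resident macrophages, went from 4.87, 4.88, 4.85 and 4.73 to 7.78, 7.68, 6.64 and 7.63 (2.60 ± 0.24, 6.07-fold, adjusted p = 4e-05). Untreated mutants were almost alike and near the level of genes that are off, and all treated ones were well above. Cd163, the haemoglobin scavenger receptor, went the other way, from 8.25, 7.93, 8.75 and 8.15 to 7.67, 6.97, 7.09 and 7.92 (-0.86 ± 0.21, adjusted p = 0.0494). Its groups nearly touched, and the call was lost without 12 of the 15 single arrays (adjusted p up to 0.14, without treated replicate 2). Gpnmb (-0.74) and Lgals3 (-0.57), genes of lipid-laden and scarring macrophages, also fell. Lgals3 is also in the list of cystic growth and YAP targets, and which cells gave its signal was not tested. Without untreated replicate 1 or treated replicate 2 none of these 3 falls was called. These 4 were the only calls among 34 macrophage and myeloid genes (11.8%, median -0.00), where 2.40% of all genes were called. Adgre1 (0.47), Cd68 (-0.16) and Csf1r (0.23) were not called. In a list of 12 resident macrophage genes put together after the data were seen, Vsig4 and Timd4 were called higher and Cd163 lower (25%). Timd4, with a kidney mean of 3.48, was below the level of genes that are off. The C1q chains were not called (0.00 to 0.14).

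All 25 interferon response genes had a positive change (median 0.47). Of these 13 had an unadjusted limma p under 0.05 and 3 were called higher (12%), where 1.07% of all genes rose. Gbp3, a guanylate-binding protein, rose from 8.31, 7.95, 7.52 and 7.85 to 8.66, 8.78, 8.53 and 8.53 (0.71 ± 0.16, adjusted p = 0.0261). Bst2, an antiviral membrane protein also called tetherin, rose by 0.61 and Stat2, a transcription factor of type I interferon signalling, by 0.56. The count was 0 without untreated replicate 4 or treated replicate 2, with only the mutant arrays or with the adipocyte covariate, and 5 without untreated replicate 1 or treated wild-type replicate 2. Ifi27l2a, an interferon-induced mitochondrial protein that the list does not hold, went from 7.84, 9.29, 7.30 and 7.01 to 11.08, 10.17, 10.26 and 9.54, where untreated replicate 2 came close to the treated arrays (2.40 ± 0.43, adjusted p = 0.00854). Cxcl9 (1.24 ± 0.31, adjusted p = 0.0499) and Cxcl10 (1.08 ± 0.22, adjusted p = 0.0167) are chemokines induced by interferon-gamma. They rose as the only calls among 31 cytokine genes (6.45%, median -0.07), where 1.07% of all genes rose. The Cxcl9 arrays did not overlap but its call was lost without 10 single arrays (adjusted p up to 0.161, without untreated replicate 1), and that of Cxcl10 without untreated replicate 4 (adjusted p = 0.0655) or treated replicate 2. Chosen after their values were seen, Ifi209 and Ifi213 rose by 1.22 and 1.31 (the second not called without untreated replicate 4, adjusted p = 0.0589), Gbp6 by 1.12 and Nlrc5, an activator of MHC class I genes, by 0.97.

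The core of the interferon-stimulated response element, the letters GAAA, any 2 bases and GAAA again, was searched on both strands of the RefSeq promoters. It occurred, at any start of the gene, at 9 of the 20 interferon response genes in the table (45%), at all 3 called ones and at 3.59% of all measured genes. The stretches of the called genes follow with the matches in capitals. Stat2 has 1 match on the opposite strand, 222 bases before the start (chr10:128270248-128270325, + strand). Bst2 has 2 overlapping matches, 130 and 124 bases before it (chr8:71537547-71537642, − strand). Gbp3 has 2 overlapping matches on the opposite strand, 45 and 39 bases before 1 of its 2 starts (chr3:142559959-142560043, + strand).
Stat2: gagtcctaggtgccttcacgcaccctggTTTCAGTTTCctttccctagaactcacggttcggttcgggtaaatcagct
Bst2: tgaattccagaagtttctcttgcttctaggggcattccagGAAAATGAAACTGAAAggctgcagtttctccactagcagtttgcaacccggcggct
Gbp3: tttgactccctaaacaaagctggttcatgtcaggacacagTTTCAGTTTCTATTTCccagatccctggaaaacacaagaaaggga

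Complement and coagulation genes had 4 of 20 called higher and 1 lower (median 0.12), together 25%, where 2.40% of all genes were called. The 3 fibrinogen chains, adjacent on chromosome 3, rose together, Fga by 1.09 ± 0.23 (adjusted p = 0.024), Fgb by 1.07 ± 0.24 (adjusted p = 0.0327) and Fgg by 1.13 ± 0.28 (adjusted p = 0.0434). The arrays of Fgb overlapped, since 1 untreated animal read 6.31 and 1 treated animal 6.16. Cfi, the protease that inactivates C3b, rose from 9.47, 9.79, 10.21 and 9.90 to 11.28, 10.83, 11.17 and 11.33 with no overlap (1.31 ± 0.31, adjusted p = 0.0371). F3, tissue factor, fell by 0.68 ± 0.14 (adjusted p = 0.0184). None of these 5 calls survived the loss of every single array: no higher call was left in complement and coagulation without untreated replicate 4 or treated replicate 3, and F3 was lost without untreated replicate 1 or 4 (adjusted p up to 0.0674).

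Where 1.07% of all genes rose, 3 of 10 genes (30%) of the renin-angiotensin system did (median 0.44). They were Agt, the angiotensin precursor (0.68 ± 0.13, adjusted p = 0.0141), Enpep, which trims angiotensin II (0.75 ± 0.16, adjusted p = 0.0257), and Ace, the converting enzyme (0.73 ± 0.18, adjusted p = 0.0496). The arrays of Agt did not overlap and its call held whichever array was left out, while the arrays of Enpep and Ace overlapped and their calls did not hold without untreated replicate 1 (adjusted p = 0.0854 and 0.153).

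The metabolic, stress and structural lists below had at most 1 call in each direction. None of 26 fatty acid oxidation and PPAR target genes was called, although 25 had a positive change (median 0.44) and 11 were higher at an unadjusted limma p under 0.05. Of 41 oxidative phosphorylation genes none was called and 39 had a positive change (median 0.14), with 11 higher at that unadjusted p. Among 23 NRF2 and glutathione genes, Sod2, the mitochondrial superoxide dismutase, rose by 0.41 (adjusted p = 0.0418) and Gstm2, a glutathione transferase, fell by 0.61 (adjusted p = 0.0344). Their called share was 8.7%, where 2.40% of all genes were called. Gadd45a, a p53-induced growth arrest gene, fell by 0.47 as the only call among 17 p53 and senescence genes (5.88%, median -0.25). Of these 17 genes 1 had a positive change, and 5 were lower and 0 higher at that unadjusted p. Klf4, an immediate-early transcription factor gene, fell by 0.65. All 4 of these calls were lost without 1 or more single arrays (adjusted p up to 0.142). None of 29 cilium and intraflagellar transport genes was called (median -0.06), with 1 higher and 2 lower at an unadjusted p under 0.05. None of 22 glucocorticoid target genes was called either (median -0.20), with 1 higher and 1 lower. Of 22 circulating factors that have been linked to cachexia, the question the series title raises, 1 was called (4.55%). This was Igfbp5, a binding protein of insulin-like growth factors (0.60 ± 0.15, adjusted p = 0.048). Its call was lost without 10 of the 15 single arrays.

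Cell cycle genes stood apart between the genotypes. In mutants 30 of 31 had a positive change with the trap (median 0.52) and 22 had an unadjusted p under 0.05. Only 1 was called (3.23%, where 1.07% of all genes rose), Kif11, a spindle motor. It read 5.52, 5.58, 5.49 and 5.51 in untreated and 5.84, 6.14, 6.18 and 6.33 in treated mutants, with no overlap (0.60 ± 0.12, adjusted p = 0.017). In wild type it fell with the trap (-0.95 ± 0.13, adjusted p = 0.00509), as did 13 of the 31 (median -0.78), where 0.551% of all genes fell. The interaction, the change in mutants minus that in wild type, was called for 17 of the 31, all positive (median 1.40), where 1.38% of all genes were called. For Top2a, which relaxes DNA supercoils, the change was 0.83 in mutants (adjusted p = 0.0808), -1.27 in wild type (adjusted p = 0.0306) and the interaction 2.10 (adjusted p = 0.00939). Esco2, a cohesin acetyltransferase, stood at 0.90 in mutants (adjusted p = 0.0646) and at -1.96 in wild type, with an interaction of 2.85. Its means were 4.86 in untreated and 2.90 in treated wild type, and 3.66 in untreated and 4.55 in treated mutants. All are near or below the level of genes that are off, so the size of these changes is uncertain. The Kif11 call in mutants was lost without untreated replicate 4 (adjusted p = 0.0589) or treated replicate 4, and with only the mutant arrays in the fit 7 of the list were called higher.

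In wild-type kidney the trap changed 156 genes (0.877%), 58 of them upward (0.326%), and shared no array with the mutant comparison. A total of 15 genes were called in both genotypes, 3.51% of the mutant calls and 9.62% of the wild-type calls, and 12 of the 15 changed in the same direction. They included Havcr1, Vsig4 and Npy6r, with changes of 1.73 ± 0.36, 1.17 ± 0.26 and -1.64 ± 0.25 in wild type. Npy6r averaged 4.53 in untreated and 2.89 in treated wild type, and Vsig4 averaged 4.21 in untreated wild type. These means are at or below the level of genes that are off, so the size of both changes in wild type is uncertain. The peroxidase Lpo (2.02 in mutants and 1.46 in wild type), the microvillar protocadherin Cdhr2 (1.18 and 1.11), the aminotransferase Gpt2 (1.06 and 0.99) and Ly6f (1.55 and 1.73) rose in both. The 3 that went opposite ways were Kif11, C1qtnf4 (-0.92 and 0.81) and Cyp4v3 (-0.36 and 0.45). Of the 427 mutant calls, 226 (52.9%) had the same sign in wild type. The share of all genes with the same sign was not counted. The rises had a median of 0.82 in mutants and 0.09 in wild type, and the falls -0.66 and 0.03. These genes were chosen for their change in mutants, so smaller medians in wild type would arise from the choice alone and test nothing.

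**Figure D5:**
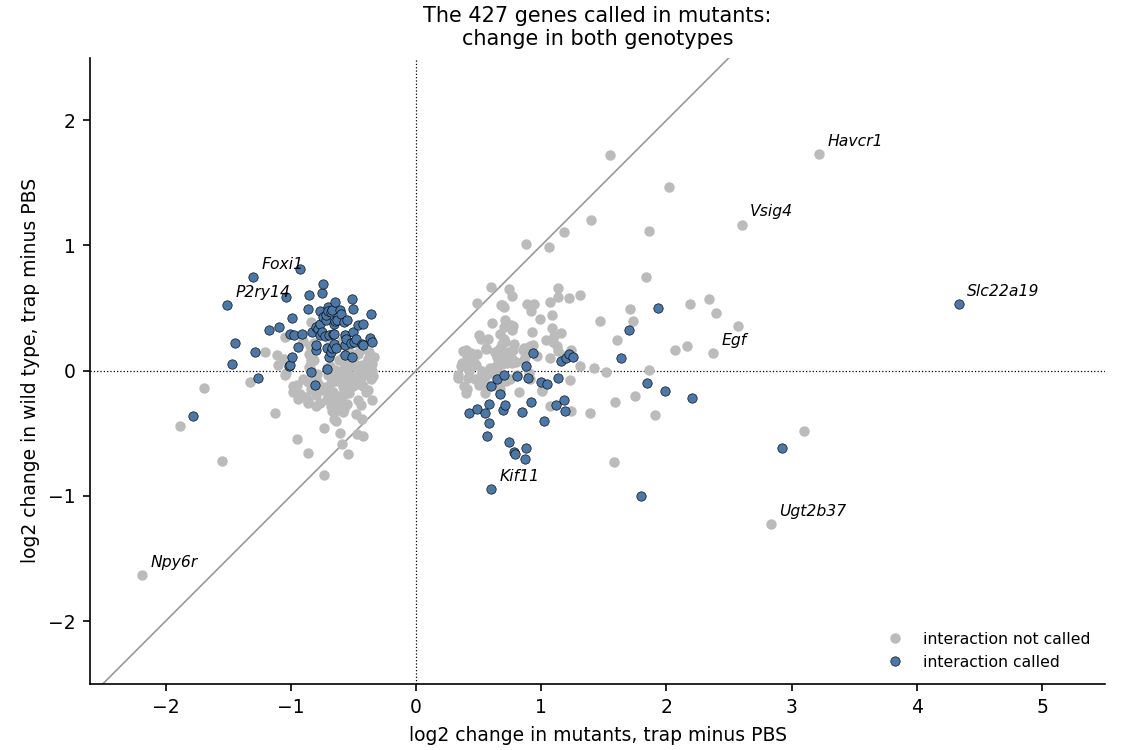
Log2 change with the trap in mutants (horizontal) and in wild type (vertical) for the 427 genes called in mutants. Blue genes were also called in the interaction and the diagonal marks equal change. Most points lie near 0 on the vertical axis, with Havcr1, Vsig4 and Npy6r away from it in the direction seen in mutants. The genes were chosen for their change in mutants, so smaller changes in wild type would arise from the choice alone. In untreated wild type Vsig4 and Npy6r were at or below the level of genes that are off.

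The interaction was called for 246 genes (1.38%), and 122 of the 427 mutant calls (28.6%) were among them. The interaction contains the change in mutants, so this overlap is partly built in and tests nothing. Slc22a19 gave 3.80 ± 0.44 (adjusted p = 0.000973), since it stood only 0.53 higher with the trap in wild type. Foxi1 gave -2.05 ± 0.28 (adjusted p = 0.00309) and P2ry14 -2.03 ± 0.17 (adjusted p = 5.86e-05), with uncalled changes of 0.75 and 0.52 in wild type. Of the principal cell list 7 of 21 and of the intercalated list 7 of 17 had a negative call, which 0.720% of all genes had, and of the proximal tubule list 4 of 39 a positive one, which 0.664% of all genes had. Sgk1, the aldosterone-induced kinase, rose by 1.56 in wild type and was not called in mutants (-0.48), with an interaction of -2.04. Gadd45g, a stress-induced growth regulator, rose by 2.11 in wild type and stood at 0.35 in mutants (interaction -1.76). Ces1g, a carboxylesterase, fell by 3.23 in wild type, while in mutants it was at or below the level of genes that are off with or without the trap (interaction 3.11). The interaction of Havcr1 was not called (1.49, adjusted p = 0.159).

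Treated mutants remained far from wild type. On the first principal axis they lay at 26.4, 34.1, 45.7 and 45.3 and untreated mutants at 66.3, 39.5, 56.1 and 57.4, with 1 untreated animal inside the treated range. Of the 191 rises, 152 began below the untreated wild-type mean, and 129 of these were still below it with the trap while 23 had passed it. The other 39 began above it and moved further away. Of the 236 falls, 226 began above the wild-type mean, of which 188 were still above it and 38 had passed it, and 10 began below. The median distance from wild type went from -1.37 to -0.70 for the rises and from 1.38 to 0.67 for the falls. These distances use the same mutant arrays that chose the genes, so they describe the calls and test nothing. For the proximal tubule list, chosen with earlier results known, the median distance was -2.97 without and -1.78 with the trap. Treated mutants and untreated wild type still differed in 8425 genes (47.4%), beside 9174 (51.6%) for untreated mutants.

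Of the 427 calls, 66 had a called gene of the same direction next to them on the chromosome, with at most 1 measured gene between. How many the same number of genes drawn at random would give was not tested, so the count is a description. Beside the TIM, fibrinogen, Scnn1 and Slc17a genes these were, among others, Slc22a29 and Slc22a30 on chromosome 19, Akr1c14 and Akr1c18 on chromosome 13, Ugt3a1 and Ugt3a2 on chromosome 15, Ugt2b37 and Ugt2b38 on chromosome 5 and P2ry14 and P2ry12 on chromosome 3. Probe sets of near-identical family members can share signal, so which member of the Slc22a, Akr1c and Ugt groups changed is uncertain.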

How the data were processed

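Snap-frozen kidney was extracted with QIAZOL and labelled with biotin for hybridisation, per the labels' protocols. The authors deposited 1 log2 value per probe set and array; the values themselves show the log2 scale, while how they were normalized is not given in these sources. The kidney arrays had medians of 6.09 to 6.24, and arrays of a mutant group correlated across genes at 0.987 or more. Of 35088 probe sets, 31563 had 1 gene symbol, 825 several and 2700 none listed. Those with 1 symbol gave 17782 genes, each read from whichever of its probe sets was brightest on average in the 15 kidney arrays. For 102 symbols RefSeq gave no match by gene ID, and they were kept as annotated. No value was imputed or left out.

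A group-means model of all 15 kidney arrays was fitted with limma 3.58.1 in R 4.3.3, so that the 4 groups share 1 moderated spread. Python 3.11.15 with matplotlib 3.10.9 drew the plots. Replicate numbers did not pair animals: the correlations of deviations of same-numbered arrays in the mutant groups ran from -0.122 to 0.342.

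The members and the 46 gene lists, plus 2 lists added later, were chosen with earlier results of these data known; of 935 listed genes 846 were measured. The genes named are the 10 largest rises and 10 largest falls among calls whose arrays do not overlap, the called member with the largest change in each direction of each list, the 5 largest interaction calls each way and 19 fixed genes; any other gene belongs to a list or was picked once its value was known, as the text says. Some listed genes are not reported here. In simulated data 200 of 17782 genes were changed. The fit for the trap in mutants recovered 89% of changes of 1 and 99% of changes of 2 on the log2 scale. It made 12 false calls, and called 0 genes when nothing changed. These figures hold for the simulated data only. On the real arrays the ribosomal RNA control moved with treatment, and leaving out 1 array gave 179 to 770 calls. The share of false calls among the real calls was not tested. Alternatives covered probe sets, dim genes, scaling, weights, covariates, the replicate block and each array in turn.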

Additional observations from a re-analysis of the deposited data

Results flagged for a closer look

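The interaction term of the limma fit was called for 22 of the 63 genes named by rule (adjusted p under 0.05). Of all genes 1.38% had such a call. Some of the 22 were named because they are the largest interaction calls each way. The others were named for their change in mutants, which the interaction contains. The count is therefore partly built in by the choice and tests nothing. Values are the change in mutants minus that in wild type. Positive values were 3.80 for Slc22a19, 3.54 for Slc22a30, 2.42 for Ugt3a1, 2.80 for the glucuronosyltransferase Ugt2b38, 3.11 for Ces1g, 2.85 for Esco2, 1.55 for Kif11 and 0.84 for Kl. Ces1g and Esco2 were at or below the level of genes that are off in mutants, so the size of their values is uncertain. This also holds for H60c, which averaged 4.01 in treated mutants. Negative values were -2.05 for Foxi1, -2.04 for Sgk1, -2.03 for P2ry14, -1.76 for Gadd45g, -1.74 for C1qtnf4, -1.66 for Dmrt2, -1.53 for H60c, -1.51 for Kcne1, -1.46 for Cd163, -1.43 for Mlph and -1.42 for Reln. The transcription factor Klf4 gave -1.20, the BMP receptor Bmpr1b -1.14 and the glutathione transferase Gstm2 -1.09.

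In 8 of 130 groups of 4 arrays examined, 1 array stood far from the other 3 by Dixon's criterion, which chance alone meets in about 1 group in 20. Among treated mutants, Slc22a30 read 7.89 in replicate 4 (7.45 to 7.49 in the others), Vsig4 6.64 in replicate 3 (7.63 to 7.78), F3 9.62 in replicate 1 (10.15 to 10.20) and Fst 8.75 in replicate 3 (7.92 to 7.98). Among untreated mutants, Gpr34 read 5.18 in replicate 1 (6.01 to 6.18 in the others) and Col1a1 8.70 in replicate 2 (9.73 to 9.87). The steroid enzymes Hsd3b1 and Cyp11b1 read 13.47 and 11.48 in treated mutant replicate 2, against 3.27 to 3.50 and 4.07 to 4.28 in the other treated mutants. They belong to the adrenal cortex genes described with that array.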

How the results depend on the processing

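Every alternative was set against the 427 genes called for the trap in mutant kidney (191 higher, 236 lower), the 156 called in wild type and the 246 called in the interaction. With only the 8 mutant arrays 226 genes were called in mutants (107 higher, 119 lower), and that setting gives no value for wild type or the interaction. With the 18S signal as a covariate, chosen after seeing the data, 1 was called (1 higher, 0 lower), and 2 in wild type and 145 in the interaction; with the adipocyte signal, also chosen after seeing the data, 180 (90 higher, 90 lower) and 159 in the interaction. Asking for a change of at least 2-fold as well left 98 (72 higher, 26 lower), 63 in wild type and 160 in the interaction. Array weights gave 302 higher, 580 in wild type and 643 in the interaction. Without replicate 2 of both mutant groups, chosen after seeing the data, 323 were higher and 405 were called in the interaction. All probe sets gave 408 in wild type and 375 in the interaction, and genes above the median level 73 in wild type. The cause of these differences was not tested.

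The replicate numbers share only a number, since same-numbered mutant arrays correlated between -0.122 and 0.342. With the replicate block 433 genes were called in mutants, 360 of them among the 427, and 53 in wild type and 102 in the interaction. Median centring turned the split into 181 higher and 267 lower, and quantile normalization into 195 and 243.

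Leaving out 1 array at a time gave between 179 (without untreated mutant replicate 4) and 770 calls (without untreated mutant replicate 2), with 88 to 440 higher and 91 to 330 lower. In wild type it gave 24 (without untreated replicate 1) to 410 (without treated replicate 1) and in the interaction 96 to 505, without the same arrays. A total of 98 calls, 49 in each direction, were made in all of 25 settings other than the 18S covariate.

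Of the 44 named genes called in mutants, Slc22a19 kept its call in every setting and 43 lost it in at least 1, the 18S covariate included. Changes of opposite sign arose for 12 named genes, none of which was called. With the 18S covariate Kif3a stood at -0.046, Inhbb at -0.29, Fst at 0.41, Acvr2b at 0.17, Smad7 at 0.22, Col1a1 at -0.94 and Gadd45g at -0.39. With the adipocyte covariate Fstl3 stood at 0.18, Id1 at -0.23 and Timp1 at 0.29, and without replicate 2 of both mutant groups Col1a1 stood at -0.11. Leaving out single arrays gave ranges of -0.031 to 0.15 for Inhba, -0.0051 to 0.48 for Inhbb, -0.30 to 0.020 for Fstl3, -0.73 to 0.12 for Timp1, -0.17 to 0.25 for Col1a1 and -0.19 to 0.0047 for Ces1g. Signal over background limits the low genes: those near the median of 4.56 of the skeletal muscle list have no reliable fold.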
